A study of Mus musculus with 6 samples.

Results

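The contractile apparatus of smooth muscle was examined through 10 genes, all found by symbol among the 20199 genes of the count table and all among the 15185 that passed the filter on low counts: Myh11, Acta2, Actg2, Tagln, Cnn1, Smtn, Myl9, Cald1, Tpm1 and Tpm2. RNA had been sequenced from smooth muscle cells of the aorta of C57B6 mice aged 12 weeks, with 3 libraries for each of a pair of genotypes, and lists of 3 values below follow the order of replicates 1, 2 and 3. The control genotype is given as WT/mTmG/ Myh11ERT2 and the other as miR-21fl/flmTmG/Myh11ERT2, called knockout below after the group label miR21 -/-. Both therefore carried mTmG, a fluorescent reporter of Cre recombination, and an inducible driver named for Myh11, one of the 10 genes examined. The inducer, the isolation of the cells and the number of mice per library were not given in the sources used here. MiR-21 itself was not analysed here, so the genotypes rest on the labels. P-values measure only the spread between these libraries, part of which may be technical.

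In smooth muscle, force arises where myosin filaments pull on actin filaments. Calcium bound to calmodulin activates myosin light chain kinase, which phosphorylates the regulatory light chain and starts cross-bridge cycling, and myosin phosphatase reverses it. Tropomyosin, caldesmon and calponin lie along the actin filament and modulate the interaction. Many of these genes are driven by serum response factor and its partner myocardin through CArG boxes, and they are the usual markers of the differentiated, contractile state. A vessel's smooth muscle cells lower them when they dedifferentiate. MicroRNAs such as miR-21 act through short matches in the 3′ untranslated regions of their target messages.

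The microRNA targeted in these mice has the following mature sequence, printed with its seed (bases 2 to 8) in capitals because the search for target sites rests on it.
miR-21a-5p: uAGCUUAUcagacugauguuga
Its gene lies on chromosome 11, and the sequence is RefSeq's for GRCm38.p6, from 86584120 to 86584141 on the minus strand. None of the 10 genes held a 7-base seed site of either form searched in any annotated 3′ untranslated region of GENCODE vM1 (0 of 10). The letters searched on the transcript strand were ATAAGCT, which pairs with bases 2 to 8, and TAAGCTA. The latter pairs with bases 2 to 7 and adds an A after them, and both forms overlap in the 8-base ATAAGCTA. Of 11144 tested genes with such a region of 20 or more bases, 1326 (11.9%) held a match of either form in their longest one. The longest regions of the 10 ran from 80 bases in Actg2 to 3015 in Cald1, so short regions had less room for a match. No match says only that these letters are not in the annotated sequence.

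RefSeq promoter windows, from 250 bases before to 50 after the start of transcription on GRCm38.p6, were at hand for 7 of the 10 genes (8 windows, with 2 for Cald1). A CArG box, written as CC, then 6 bases that are each A or T, then GG, reads the same way on both strands as a pattern. Myl9 was the 1 gene of the 7 with an exact box, a feature of 1.63% of 32851 promoter windows. With 1 G or C allowed in the core, the pattern was also found at 2 places in Acta2 and at a second place in Myl9, and 9.98% of all windows held it in either form. These stretches are shown because they fit the pattern of a serum response element in the 2 genes with the highest levels per length of the set, with the box in capitals, 5′ to 3′ on the gene's strand.
Myl9, exact box, chr2:156775278-156775337: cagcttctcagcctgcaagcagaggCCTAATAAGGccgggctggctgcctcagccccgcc
Myl9, box with 1 G in its core, chr2:156775340-156775399: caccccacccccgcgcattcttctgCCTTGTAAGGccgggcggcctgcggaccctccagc
Acta2, upstream box with 1 C in its core, chr19:34255423-34255482: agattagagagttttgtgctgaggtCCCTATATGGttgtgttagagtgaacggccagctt
Acta2, downstream box with 1 G in its core, chr19:34255373-34255432: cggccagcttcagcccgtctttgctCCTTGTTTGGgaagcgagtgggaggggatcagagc
Measured from the start used for the windows, the Acta2 boxes begin 84 and 34 bases before it and the Myl9 boxes 161 and 99. The deposited gene coordinates, given below, place these starts elsewhere, at 34255336 for Acta2 and 156775420 for Myl9. The distances therefore hold only for the windows. The windows of Cnn1, Smtn, Cald1, Tpm1 and Tpm2 held neither form, which is a description of these windows and draws nothing about the factor. Some windows do not sit at the gene ends given below. That of Smtn, on the minus strand, reaches only to 3539542, while the gene is given as reaching 3540612.

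Library totals ran from 17123748 to 28610649 counts, and the contractile genes rest on CPM values from 431 upward. Counting error was therefore small beside the spread between libraries, except for Tpm1 in knockout, where the SD was only 19.9 CPM. Wild-type replicate 1 stood apart. It lay at −58.1 on the first principal component, which held 40.6% of the variance, against 1.53 to 27.3 for the other 5. Smooth muscle markers outside the 10 genes were abundant in both genotypes, led by Itga8 and Mylk. Their sum over 10 of 10 markers was 7030 to 10603 CPM (counts scaled to library size, with TMM factors) in wild type and 9351 to 12073 CPM in knockout. Wild-type replicate 1 had the lowest sum, and Itga8 was at 1373 CPM there against 2640 to 5628 CPM in the other libraries. Among markers of other cells, those of erythroid cells had the highest sum. Endothelial markers (8 of 8 in the table, led by Pecam1 and Vwf) summed to 37.9 to 40.7 CPM in wild type and 36.8 to 48.4 CPM in knockout. Fibroblast markers (7 of 7, led by Dcn and Lum) summed to at most 138 CPM in wild type and to 79.6 to 168 CPM in knockout. Macrophage and leukocyte markers (8 of 8, led by Lyz2 and Cd68) summed to 3.86 to 8.19 CPM and 1.54 to 7.36 CPM. Striated muscle markers (7 of 11, led by Ckm and Tnnt2) summed to 16.6 to 25.6 CPM and 16.1 to 19.0 CPM. Erythroid markers (5 of 5, led by Hbb-bs and Hba-a2) summed to 387 to 1186 CPM and 823 to 1019 CPM, with wild-type replicate 1 the lowest. Markers at 0 in every library could hardly appear, since 20198 of the 20199 genes in the count table had counts. Markers may be missing from that table instead. Tnni2, Myh1, Myh4 and Myl2 of the striated list and all 4 adipocyte markers were not in it. The part of these markers in the results was not tested.

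Together the 10 genes took a similar share of the transcriptome in both genotypes. Their summed share of all counts was 6.18%, 5.90% and 5.30% in wild type and 5.56%, 5.57% and 5.71% in knockout. The group means were 5.79% ± 0.453 in wild type and 5.62% ± 0.0851 in knockout (SD, n = 3), so the knockout values lay inside the wild-type range. The knockout mean was 0.176 percentage points below the wild type, a difference of −0.1758 that ran from −0.424 without wild-type replicate 3 to 0.0184 without wild-type replicate 1. In bulk RNA, fewer cells of a type and less of its RNA per cell cannot be told apart.

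Among the 10 genes the level per length differed by well over an order of magnitude. The length taken was that of the longest coding transcript in GENCODE vM1, and all values in these sentences are levels in CPM per kb. Acta2 came first, at 12941 ± 1790 in wild type and 12036 ± 683 in knockout. Myl9 followed at 5149 ± 800.0 and 4496 ± 122, and Tagln at 4439 ± 756 and 3913 ± 123. Each of these 3 stood above the next in 6 of 6 libraries. Myh11 came next, at 1320 ± 286 and 1496 ± 148, above Cnn1 in 5 of 6 libraries, the exception being wild-type replicate 1. Cnn1 (1376 ± 184 and 1104 ± 37.6) and Tpm2 (1315 ± 295 and 1155 ± 56.0) did not separate, since Cnn1 was the higher of the pair in 2 of 6 libraries. Smtn (937 ± 35.5 and 929 ± 38.2) and Tpm1 (961 ± 50.6 and 837 ± 6.88) did not separate either, with Smtn higher in 3 of 6. Actg2 (398 ± 65.3 and 405 ± 74.1) and Cald1 (332 ± 46.0 and 330 ± 19.8, in wild type and knockout) were lowest, and Actg2 was above Cald1 in 6 of 6 libraries. Transcript choice bears on this order, since Cald1, Tpm1 and Smtn have many annotated transcripts of different length.

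None of the 10 genes differed between the genotypes past the threshold of an adjusted p of 0.05 in edgeR's quasi-likelihood test. That count, 0 of 10, stands beside 0 of 15185 genes overall (0%), and DESeq2 called 0 of the 10 and 69 genes in all (0.454%). At an unadjusted p under 0.05 edgeR listed 1 of the 10, Cnn1, against 6.29% of all genes tested (3.44% lower in knockout). That count of 1 was 0 under scaling by library totals and in 5 of the 6 fits that leave out a library, the exception being that without wild-type replicate 3. Over all genes that list held 433 higher and 522 lower, which turned to 643 and 376 under scaling by library totals instead of TMM. Fitted means were lower in knockout for 8 of the 10 and higher for 2, with a median log2 fold change of −0.14, where the median of all genes tested was −0.00078. Under scaling by library totals 6 were lower and 4 higher. Without wild-type replicate 1 the split was 5 and 5 and the median −0.0147. The groups did not overlap for 2 genes, Cnn1 and Tpm1, both lower in knockout, and for 0 that were higher, where 14.5% of all genes did not overlap (7.57% lower and 6.95% higher).

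**Figure D1:**
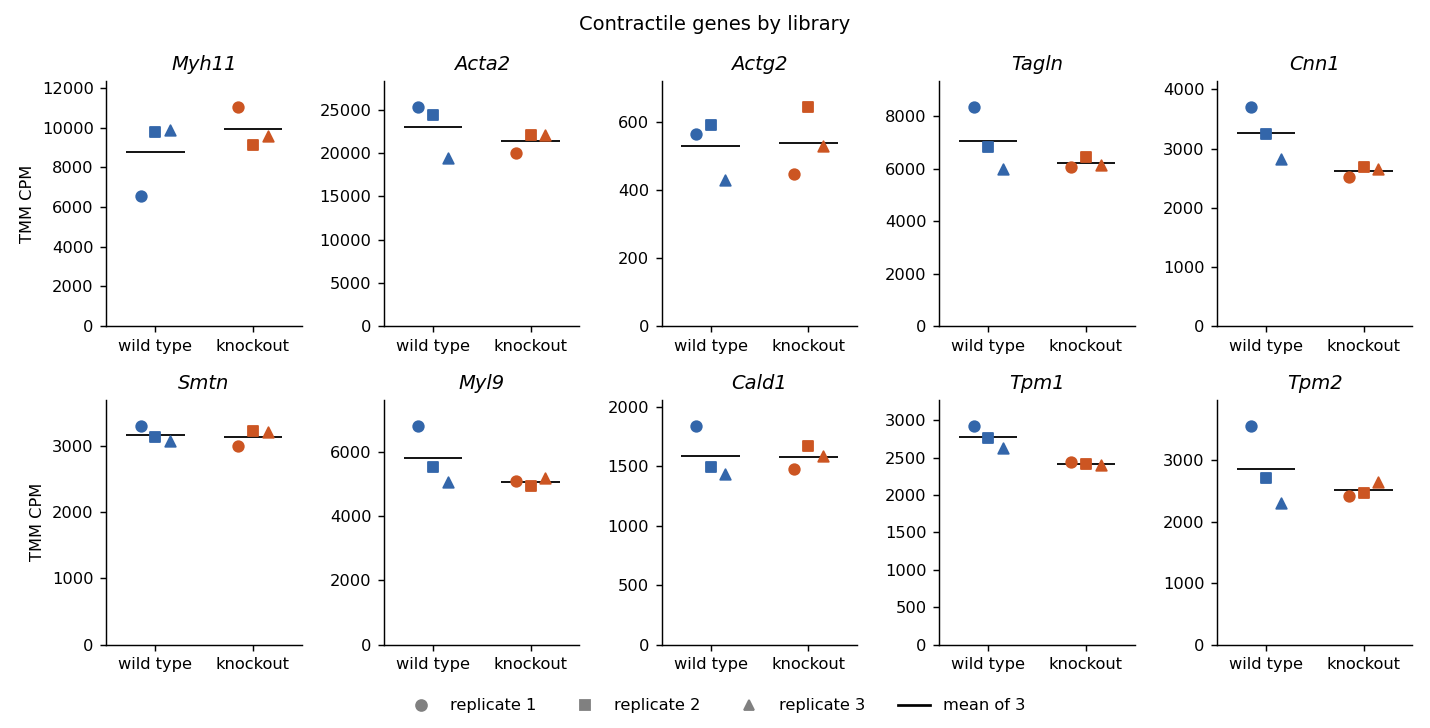
Level of each of the 10 contractile genes in TMM-scaled CPM (vertical axes from 0) in every library, with wild type in blue, knockout in orange, marker shapes for replicates and a bar for the mean of 3. Wild-type replicate 1 is the highest library for 8 of the 10 genes and the lowest for Myh11, and Cnn1 and Tpm1 show no overlap between the groups.

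Myh11 encodes the smooth muscle myosin heavy chain, the motor of the thick filament, and lies on chromosome 16 from 14194527 to 14291408 on the minus strand of mm10. Its level was 6559.8, 9805 and 9893 CPM in wild type and 11026, 9142 and 9593 CPM in knockout. The first wild-type library was far below the other 5, which overlapped between genotypes. The means were 8752 ± 1899 and 9920.5 ± 984 CPM (SD, n = 3), with a log2 fold change of 0.18 ± 0.18 SE and a 95% interval of −0.23 to 0.59 (edgeR adjusted p = 0.818). Leaving out the first wild-type library gave 0.011 for Myh11, while 0.276 resulted without wild-type replicate 3 and 0.2745 without wild-type replicate 2. It was 0.099 when knockout replicate 1 was omitted. Its coding sequence is 76.3% identical to that of Myh9 and 73.8% identical to that of Myh10, the nonmuscle heavy chains. The longest stretch without a difference, shown because short reads within it could not tell the 3 genes apart, is the same in both alignments, from base 1405 to base 1469 of the Myh11 coding sequence (GENCODE vM1).
Myh11, Myh9 and Myh10: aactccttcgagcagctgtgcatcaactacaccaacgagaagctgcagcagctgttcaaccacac

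Myl9, on chromosome 2 from 156775420 to 156781658 on the plus strand, encodes the regulatory light chain that myosin light chain kinase phosphorylates. It was at 6813, 5540.4 and 5069 CPM in wild type and at 5089, 4926 and 5201 CPM in knockout. The knockout libraries lay within 300 CPM of each other, and the third wild-type library fell among them. The log2 fold change was −0.20 ± 0.15 SE with a 95% interval of −0.52 to 0.13 (edgeR adjusted p = 0.783), and ran from −0.288 without wild-type replicate 3 to −0.065 without wild-type replicate 1. The coding sequence of Myl9 is 86.3% identical to that of Myl12b, a nonmuscle regulatory light chain.

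Acta2, the smooth muscle alpha-actin gene of the thin filament, lies on chromosome 19 from 34241090 to 34255336 on the minus strand. Its level was 25310.3, 24430.5 and 19401 CPM in wild type and 20032, 22139.8 and 22136 CPM in knockout. Wild type held both the 2 highest libraries and the lowest, so the knockout lay inside its range. In edgeR the difference on the log2 scale was −0.10 ± 0.15 SE, with a 95% interval of −0.45 to 0.24 (edgeR adjusted p = 0.868). Without wild-type replicate 1 it was −0.032, and without wild-type replicate 3 it was −0.217.

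Actg2, the gamma-actin gene typical of visceral smooth muscle, lies on chromosome 6 from 83512905 to 83536265 on the minus strand. It was at 567, 593 and 431 CPM in wild type and at 447, 644 and 529 CPM in knockout. Each genotype had 1 library below 450 and at least 1 above 560, and the groups overlapped fully. On the log2 scale the difference was 0.03 ± 0.17 SE, with a 95% interval of −0.37 to 0.42 (edgeR adjusted p = 0.9746). Its sign changed when wild-type replicate 3 (−0.10) or knockout replicate 2 (−0.12) was left out. The coding sequences of Acta2 and Actg2 are identical at 955 of 1131 aligned bases (84.4%), and the longest shared stretch, bases 637 to 665 of the Acta2 coding sequence, shows how short a run of sequence the pair has in common.
Acta2 and Actg2: gacatcaaggagaagctgtgctatgtagc
Acta2 shares a longer stretch, 47 bases, with the cytoplasmic actin gene Actb. How the deposited counts assigned reads common to several actin genes was not given in the sources used here, so the low counts of Actg2 beside those of Acta2 are uncertain to that extent.

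Tropomyosins wind along the actin filament. Tpm1, on chromosome 9 from 67022590 to 67049406 on the minus strand, was at 2929, 2769 and 2637 CPM in wild type and at 2438, 2416 and 2399 CPM in knockout. Every wild-type library was above every knockout library, and the knockout SD was 19.9 CPM against 146 CPM in wild type. The log2 fold change was −0.20 ± 0.12 SE with a 95% interval of −0.47 to 0.065, and did not pass (edgeR adjusted p = 0.778, unadjusted p = 0.122). Tpm2, on chromosome 4 from 43514711 to 43523765 on the minus strand, was at 3564, 2714 and 2304 CPM in wild type and at 2417, 2472 and 2649.95 CPM in knockout. The wild-type libraries reached above and below the knockout range. In edgeR the difference on the log2 scale was −0.19 ± 0.17 SE with a 95% interval of −0.57 to 0.20 (edgeR adjusted p = 0.802), with −0.324 without wild-type replicate 3 and 0.0024 without wild-type replicate 1. The 2 genes are 74.3% identical over 830 aligned coding bases.

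Among the proteins bound to the thin filament, calponin had the smallest p-value of the 10 genes. Cnn1, the calponin gene on chromosome 9 from 22099216 to 22109630 on the plus strand, was at 3698, 3252 and 2828 CPM in wild type and at 2512, 2680.4 and 2647 CPM in knockout. All 3 knockout libraries were below all 3 wild-type libraries. The means were 3259 ± 435 and 2613 ± 89.1 CPM (SD, n = 3). The log2 fold change of Cnn1 was −0.32 ± 0.14 SE, with a 95% interval of −0.63 to −0.0072, and it did not pass over all genes (edgeR adjusted p = 0.778, unadjusted p = 0.0459). Leaving out each library in turn gave −0.41 to −0.22, the smallest size being that without wild-type replicate 1.

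Tagln, which encodes transgelin, an actin-binding protein and a classic marker of this cell type, lies on chromosome 9 from 45929619 to 45936058 on the minus strand. It was at 8334, 6819 and 5968 CPM in wild type and at 6066, 6428 and 6124 CPM in knockout. Wild-type replicate 3 was the lowest of the 6 and wild-type replicate 1 the highest. On the log2 scale the difference was −0.18 ± 0.15 SE with a 95% interval of −0.52 to 0.16 (edgeR adjusted p = 0.787), and ran from −0.291 without wild-type replicate 3 to −0.043 without wild-type replicate 1.

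Cald1, the caldesmon gene, and Smtn, the smoothelin gene, had fold changes close to 0. Cald1, on chromosome 6 from 34598500 to 34775473 on the plus strand, was at 1839, 1493 and 1431 CPM in wild type and at 1478, 1666 and 1584 CPM in knockout. Apart from the first wild-type library the knockout values were interleaved with the wild type or above it. The log2 fold change of Cald1 was −0.011 ± 0.14 SE with a 95% interval of −0.32 to 0.30 (edgeR adjusted p = 0.988), and 0.11 without wild-type replicate 1. Smtn, on chromosome 11 from 3517523 to 3540612 on the minus strand, encodes a protein of contractile actin filaments found in fully differentiated smooth muscle. It was at 3309, 3132 and 3079 CPM in wild type and at 2996, 3225 and 3216 CPM in knockout. Smtn had the narrowest range of the 10 genes over the 6 libraries, 0.143 on the log2 CPM scale. Its log2 fold change was −0.013 ± 0.12 SE, with a 95% interval of −0.28 to 0.26 (edgeR adjusted p = 0.982). The sign of the Cald1 and Smtn fold changes turned under scaling by library totals (0.029 and 0.028).

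**Figure D2:**
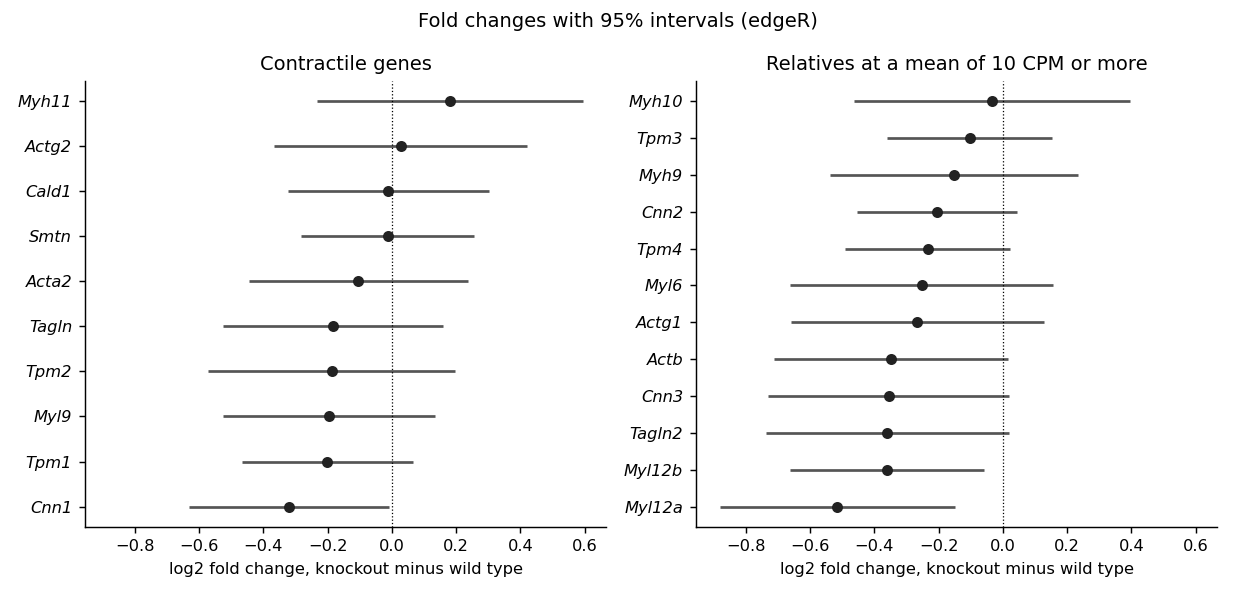
Log2 fold changes (knockout minus wild type, horizontal axis) of the 10 contractile genes on the left and of their relatives with a mean of at least 10 CPM on the right, with 95% intervals from edgeR. The intervals of 9 contractile genes cross 0 and that of Cnn1 ends at −0.0072, while every relative has a point estimate below 0.

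The 10 genes did not vary as 1 block across the libraries. With the mean log2 CPM over the 6 libraries subtracted from each gene, the pair most alike was Tagln and Myl9, with a root mean square difference of 0.051. Tagln with Tpm2 (0.067) and Myl9 with Tpm2 (0.067) came next. All 9 pairs that include Myh11 were the last 9 of the 45, from 0.28 with Smtn to 0.43 with Tpm2, where the median pair differed by 0.136. In wild-type replicate 1 Myh11 was −0.49 from its own mean, while Tpm2 was 0.42, Cnn1 0.35, Tagln 0.34 and Myl9 0.33 above theirs. Wild-type replicate 1 was the highest library for 8 of the 10 genes, against 32.1% of all genes tested. Actg2 had a profile of its own, with knockout replicate 2 highest (0.28) and wild-type replicate 3 lowest (−0.30).

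**Figure D3:**
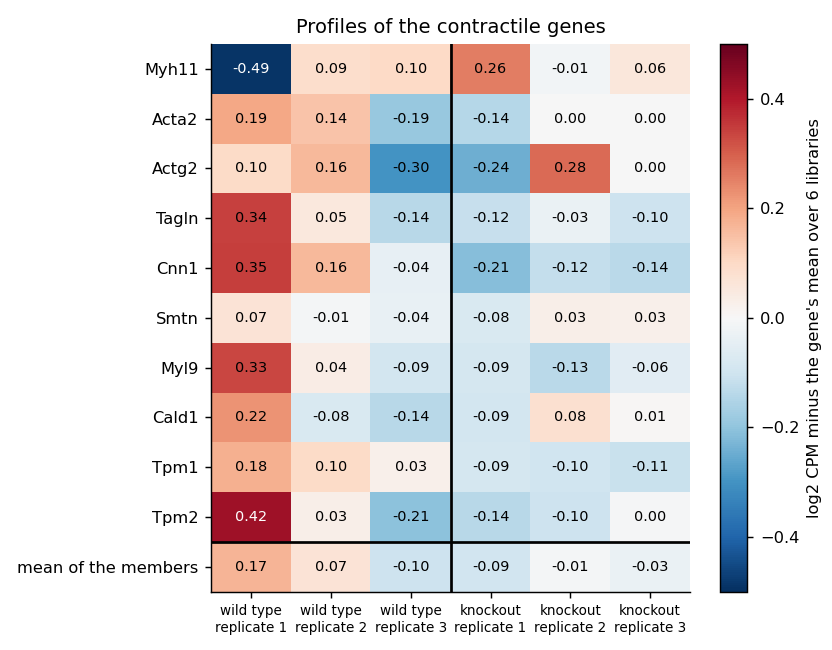
Centred log2 CPM of the 10 contractile genes and their mean (vertical axis) in the 6 libraries (horizontal axis), as colour and number. In wild-type replicate 1 Myh11 is at −0.49 while the other 9 genes are above 0, and in knockout most values are closer to 0.

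With every library kept, spread within a genotype was smaller in knockout for most genes. The SD of log2 CPM over 3 libraries was lower in knockout for 8 of the 10 genes (Actg2 and Smtn being the exceptions), with a median of 0.214 in wild type and 0.0647 in knockout. The same held for 69.2% of all genes tested, with medians of 0.249 and 0.155. Without wild-type replicate 1 it held for 7 of the 10 and for 38.7% of all genes. That comparison sets the SD of 2 wild-type libraries against the SD of 3 knockout libraries, so its shares are not like for like with those above. With 2 or 3 libraries a genotype these are descriptions without a test.

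Transcript length moved with the position of wild-type replicate 1. Over the 12605 tested genes with a length (83.0%), genes with transcripts of up to 1000 bases had a median deviation of 0.41 there from the median of the other 5 libraries, on the log2 CPM scale, and those of 4001 to 6000 bases a median of −0.286. In the other libraries the medians of the 7 length classes ran from −0.114 to 0.133, both in knockout replicate 1. Myh11, with 6632 bases the longest of the 10, was 0.58 below the median of the others in wild-type replicate 1, while the trend at its length was −0.306. Short members were above the others, such as Myl9 (1128 bases, 0.421 against a trend of 0.299) and Tagln (1586 bases, 0.444 against 0.193). Longer members did not all follow, since Cald1 (4777 bases) was 0.30 above the others where the trend was −0.285, and Tpm1 (2890 bases) was 0.264 above where it was −0.095. Other genes, chosen here after their values were seen, lay at various distances from the trend. Flna (8456 bases, −0.702) and Vcl (5229 bases, −0.815) were further below than their trends of −0.240 and −0.300, and Fhl1, with 2770 bases and a trend of −0.073, was at −0.711. Mylk, with 7824 bases, was at −0.253 beside a trend of −0.264.

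With the length trend of each library removed, an alternative chosen after the data were seen, the genotype differences became smaller for 6 of the 10 genes. Myh11 went from 0.18 to 0.068 on the log2 scale, Tagln from −0.18 to −0.090 and Myl9 from −0.20 to −0.070. The difference went from −0.32 to −0.288 for Cnn1 and from −0.20 to −0.217 for Tpm1, the 2 genes whose groups did not overlap. It also moved away from 0 for Cald1 (−0.011 to −0.140), Actg2 (0.028 to 0.132) and Smtn (−0.013 to −0.069). The split was 8 lower and 2 higher, with a median of −0.080, and 0 of the 10 passed (edgeR adjusted p for Cnn1 = 0.671), as did 0 of 12605 genes.

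**Figure D4:**
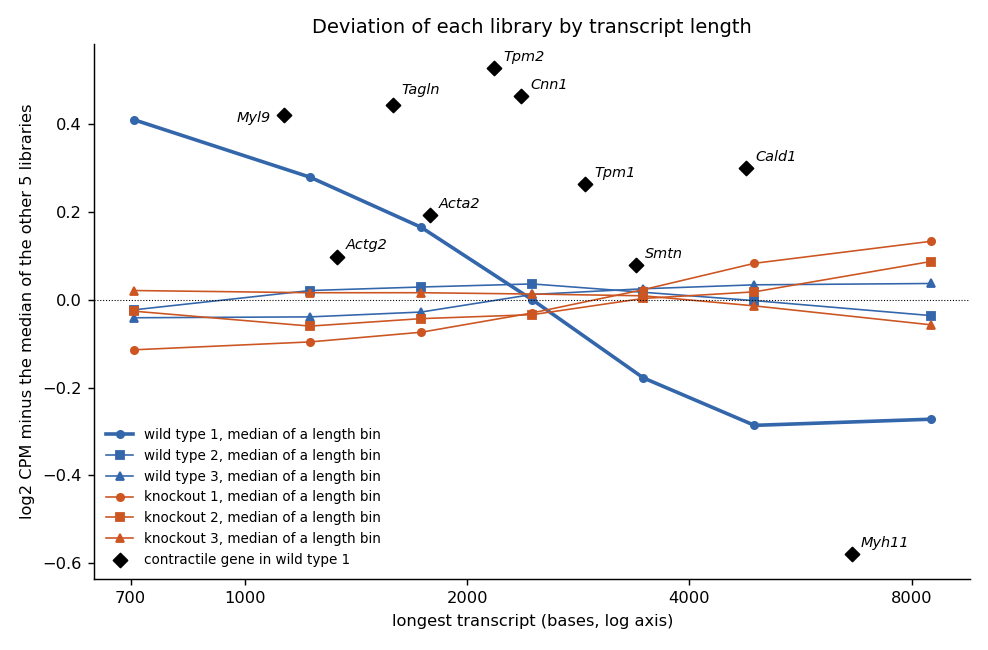
Deviation of each library from the median of the other 5 in log2 CPM (vertical axis) by longest transcript in bases (horizontal log axis), as medians of 7 length classes per library, with the 10 contractile genes in wild-type replicate 1 as diamonds. The line of wild-type replicate 1 falls from 0.41 for the shortest to about −0.28 for the longest transcripts, Myh11 lies at −0.58 and Cald1 at 0.30.

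Close relatives of these genes, mostly the nonmuscle or striated muscle forms, had lower fitted means in knockout throughout. Of the 16 tested members of a list of 19 actin, myosin, tropomyosin, transgelin, calponin and smoothelin relatives, 16 were lower and 0 higher, with a median log2 fold change of −0.35 against −0.00078 over all genes tested. Of all genes tested 7614 of 15185 were lower. Acta1, Actc1, Myl6b and Smtnl2 count equally among the 16, though their means were under 10 CPM. Myl6b, with the lowest log2 fold change of −0.98, was at 0.661 ± 0.466 and 0.311 ± 0.229 CPM. In edgeR 0 of the 16 passed over all genes (adjusted p from 0.709 to 0.973). An unadjusted p under 0.05 was seen for 2 of the 16, where 6.29% of all genes had such a p. Under scaling by library totals Myh10 turned to 0.0090, 15 of 16 were lower and the median was −0.31. Without wild-type replicate 1 the count was 15 of 16 and the median −0.235, with Myh9 turned to 0.038. With the length trend removed it was 15 of 15 and −0.267. Tagln3 did not pass the filter on low counts, and Myh14 and Smtnl1 were not found by symbol in the count table.

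Myl12a and Myl12b, which encode regulatory light chains of nonmuscle myosin, had the smallest p-values in that list. Myl12a was at 604, 420 and 415 CPM in wild type and at 327, 351 and 328 CPM in knockout, so the groups did not overlap. In that list 4 tested genes did not overlap, all lower in knockout, against 14.5% of all genes. The log2 fold change of Myl12a was −0.52 ± 0.16 SE (edgeR adjusted p = 0.709), and −0.32 without wild-type replicate 1. Myl12b was at 81.0 ± 12.8 and 63.0 ± 2.63 CPM (log2 fold change −0.36, and −0.226 without wild-type replicate 1). Actb, cytoplasmic beta-actin, was at 7106 ± 1018 and 5585 ± 749 CPM (−0.35), and Tagln2, a transgelin of many cell types, at 1059 ± 227 and 825 ± 70.5 CPM (−0.36, and −0.178 without wild-type replicate 1). The nonmuscle heavy chain genes Myh9 (194 ± 41.6 and 175 ± 23.3 CPM) and Myh10 (652 ± 137 and 637 ± 115 CPM) were at −0.15 and −0.033. Myh9 has the sign change given above. With the length trend removed Myh9 was at −0.306 and Myh10 at −0.152.

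Ratios of 2 genes within a library do not depend on scaling. The count of Acta2 was 3.18, 3.31 and 3.24 times that of Actb in wild type and 4.11, 4.01 and 3.48 times in knockout. Every knockout library was above every wild-type library, and the log2 ratio was 0.25 higher in knockout. The ratio of Tagln to Tagln2 was 6.37, 6.83 and 6.87 in wild type and 8.15, 7.35 and 7.15 in knockout, also without overlap (0.17 higher on the log2 scale). For Myh11 to Myh10 the ratio was 13.1, 12.9 and 14.2 in wild type and 14.5, 17.3 and 15.4 in knockout, again without overlap (0.23 higher). With TMM scaling Acta2 (−0.10) and Tagln (−0.18) were themselves fitted lower in knockout, and Actb (−0.35) and Tagln2 (−0.36) lower still. Myh11 was fitted higher (0.18) and Myh10 slightly lower (−0.033). The second gene of each ratio came from the relatives above, of which all 16 tested were fitted lower. The share of other gene pairs without overlap was not computed. In each of these 3 ratios the 2-sided exact permutation test gave p = 0.1, the smallest that 3 against 3 allows, and an adjusted p of 0.267 over the 8 ratios. With each library left out in turn the log2 differences of these ratios ran from 0.204 to 0.324, from 0.117 to 0.212 and from 0.158 to 0.281.

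The other 5 ratios overlapped between the genotypes. Myh11 stood to Acta2 as 0.259, 0.401 and 0.510 in wild type and as 0.550, 0.413 and 0.433 in knockout, so the first wild-type library held the least myosin message per actin message. The log2 difference of 0.30 (exact permutation p = 0.4) was 0.030 without that library, 0.171 without knockout replicate 1 and 0.518 without wild-type replicate 3. For Actg2 to Acta2 the ratio ran from 0.0222 to 0.0291 over the 6 libraries (log2 difference 0.12, and 0.011 to 0.202 when knockout replicate 2 or 1 was left out), and for Tpm2 to Tpm1 from 0.874 to 1.22. Myh11 to Myh9 was 0.34 higher on the log2 scale (exact permutation p = 0.6), with −0.024 without wild-type replicate 1 and 0.546 without wild-type replicate 3. Cnn1 to Cnn3 differed by 0.021 (exact permutation p = 1).

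**Figure D5:**
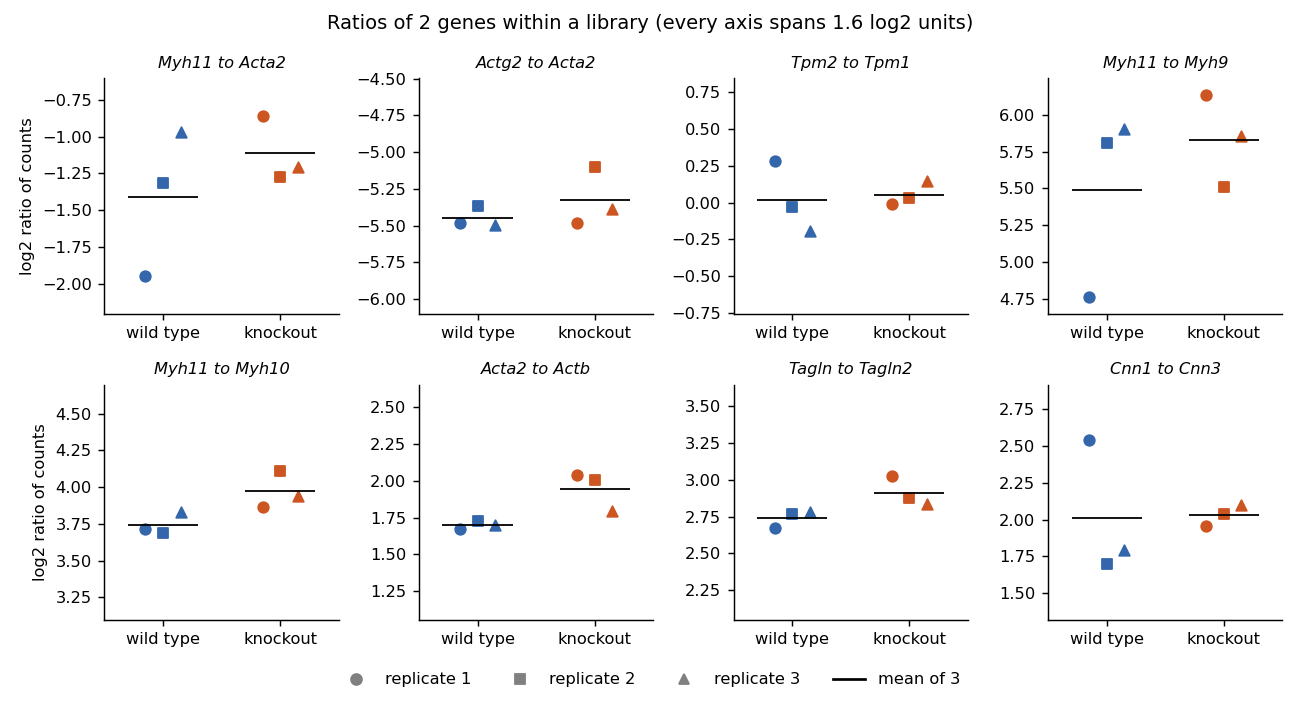
Log2 ratios of the counts of 2 genes within each library (vertical axes, each spanning the same number of log2 units), with wild type in blue, knockout in orange and a bar for the mean of 3. The ratios Myh11 to Myh10, Acta2 to Actb and Tagln to Tagln2 do not overlap between the groups, while Myh11 to Acta2, Myh11 to Myh9 and Cnn1 to Cnn3 have wild-type replicate 1 far from the other libraries.

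The genes that switch contraction on and off had small values in both directions. Of 18 tested regulators 10 were fitted higher and 8 lower (median log2 fold change 0.034), and 0 passed in edgeR over all genes (adjusted p from 0.778 to 0.965), none having an unadjusted p under 0.05. The count of higher genes was 8 without wild-type replicate 1, 7 when wild-type replicate 3 or knockout replicate 2 was omitted and 5 with the length trend removed, and in each of these the median was below 0 (−0.0386, −0.018, −0.0353 and −0.0577). Mylk, the gene of myosin light chain kinase, was at 1648, 1867 and 1661 CPM in wild type and at 1964, 1971 and 2026 CPM in knockout. Its groups did not overlap, and its log2 fold change was 0.20 ± 0.12 SE (edgeR adjusted p = 0.778), or 0.074 with the length trend removed. Calm3, a calmodulin gene, was at 256 ± 14.3 and 201 ± 41.2 CPM, also without overlap (−0.35, and −0.194 without knockout replicate 2). Over the 18 regulators the groups did not overlap for 1 gene higher and 3 lower in knockout, against 14.5% of all genes. Dapk3, which encodes a kinase that acts on the light chain and on myosin phosphatase, was at −0.22, with −0.120 and −0.330 when wild-type replicate 1 or 3 was left out.

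Proteins of dense bodies, intermediate filaments and adhesions anchor the contractile filaments. In this list 8 of 21 tested genes were fitted higher and 13 lower in knockout (median log2 fold change −0.045), and 0 passed in edgeR over all genes (adjusted p from 0.775 to 0.976). The count of higher genes was 5 without wild-type replicate 1 and 11 without wild-type replicate 2, where the median was 0.0014. With the length trend removed it was 9, and the median was −0.11. Those with an unadjusted p under 0.05 in edgeR were 3 of 21, where 6.29% of all genes had such a p. They were Fhl2 and Zyx, lower, and Svil, higher. In this list the groups did not overlap for 2 genes higher and 3 lower in knockout, against 14.5% of all genes. Zyx, the zyxin gene of focal adhesions, was at 1658, 1489 and 1409 CPM in wild type and at 1198, 1261 and 1223 CPM in knockout, without overlap (−0.31 ± 0.12 SE). Svil, the supervillin gene, was at 310.4 ± 40.01 and 388 ± 20.7 CPM (0.32, and 0.198 with the length trend removed), and Fhl2 at 16.8 ± 0.612 and 13.1 ± 1.29 CPM (−0.37). Des, the muscle intermediate filament gene, was at 221 ± 24.0 and 180.4 ± 24.9 CPM (−0.29, −0.184 without knockout replicate 3 and −0.317 with the length trend removed). Lmod1, which encodes an actin nucleator of smooth muscle, was at 661 ± 64.9 and 609 ± 19.5 CPM. It was at −0.12, with −0.035 without wild-type replicate 1 and −0.212 with the length trend removed.

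The transcription factors that drive the contractile genes did not pass either (0 of 4 in edgeR, adjusted p from 0.778 to 0.988). Of the 4, 1 was fitted higher and 3 lower (median log2 fold change −0.033). The median turned to 0.061 when wild-type replicate 2 and to 0.033 when knockout replicate 1 was omitted, and to 0.0070 under scaling by library totals. It was −0.146 with the length trend removed and −0.133 without knockout replicate 2. Srf, serum response factor, was at 104, 92.7 and 89.6 CPM in wild type and at 79.2, 88.6 and 78.2 CPM in knockout, without overlap. Its log2 fold change was −0.22 ± 0.12 SE, and −0.317 with the length trend removed. It was the 1 gene of the 4 without overlap, against 14.5% of all genes (7.57% lower in knockout). Myocd, the myocardin gene, was at 254 ± 68.4 and 251 ± 38.9 CPM (−0.016 ± 0.20 SE), and its sign turned under several settings. Mkl1 (0.14) and Mkl2 (−0.049), genes of related coactivators, were at 31.8 ± 4.72 and 35.02 ± 3.67 CPM and at 20.7 ± 1.10 and 19.98 ± 1.83 CPM. Mkl1 was at 0.020 and 0.224 when wild-type replicate 3 or 1 was left out, and at 0.053 without knockout replicate 2.

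A search took 8577 other genes with a mean of at least 10 CPM and an ordinary symbol, leaving out Gm, Rik and clone-like names. Closest to the mean profile of the 10 contractile genes, in centred log2 CPM over the 6 libraries, were Fkbp1a, Ndufa9, Sfxn1, Sec13 and Rheb. Their root mean square differences from it ran from 0.011 for Fkbp1a to 0.018 for Rheb. Fkbp1a encodes an immunophilin, Ndufa9 a subunit of respiratory complex I, Sfxn1 a mitochondrial serine transporter, Sec13 a vesicle coat protein and Rheb a GTPase upstream of mTOR. All 5 were highest in wild-type replicate 1, where the mean profile itself was highest (0.171), and their log2 fold changes ran from −0.11 for Sec13 to −0.086 for Ndufa9. Without wild-type replicate 1 they ran from −0.059 for Sec13 to −0.0095 for Rheb, and without wild-type replicate 3 from −0.185 for Fkbp1a to −0.152 for Sfxn1. The likeness describes 6 libraries of which 1 stands apart, and says nothing about a common role.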

How the data were processed

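Libraries of long RNA from 6 samples (3 per genotype) were analysed. Per the labels' protocols, Trizol was used on frozen cells and an Illumina TruSeq RNA kit for the libraries. STAR 2.6, DESeq2 and mm10 are named in the submitters' processing notes. Counting tool and strand setting were not given in the sources used here. Expected counts were deposited by the authors. They sum to a different total in each library, so no normalisation was assumed. Values are printed with 6 significant digits, and 65.4% of them differ from a whole number by at most 0.01. Of 17011 symbols matched to the RefSeq gene table of GRCm38.p6, 4672 had a deposited end 1 base past the table's and 411 the same end, so 1 was subtracted. The others had neither.

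Counts were rounded and tested with edgeR 4.0.16 in R 4.3.3 (filterByExpr, TMM, glmQLFit and glmQLFTest with robust=TRUE, 2-sided, Benjamini-Hochberg over 15185 genes, threshold 0.05). Standard errors were derived from the log2 fold change and the F statistic. Centred values are log2 CPM with a prior count of 2. Ratios were tested with scipy 1.17.1, alignments used Biopython 1.88, and the fit was tested on simulated data. The naming rule took the 10 genes, the 4 smallest p-values of each other list with Mylk, Lmod1, Myh9, Myh10, Actb and Myocd, the 5 nearest profiles, and the 2 most abundant markers of each cell type. Some genes and 1 marker list that the rule takes are not reported here. Members and lists were chosen with earlier results of these data known. Alternatives were other scalings, no filter, DESeq2 1.42.0, limma voom 3.58.1, robust=FALSE, a replicate block, each library left out, and, added later, removal of a length trend (lowess, span 0.3, as an edgeR offset).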

Additional observations from a re-analysis of the deposited data

How the results depend on the processing

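No contractile gene was called under any of the 15 alternatives (0 of 10 each time). Over all genes edgeR called 0, DESeq2 69 and limma voom 0, and edgeR called 0 to 9 with each library left out (9 without wild-type replicate 1, 1 without wild-type replicate 2). The median log2 fold change of the 10 genes ran from −0.228 to −0.0147 with each library left out. Myh11, Acta2, Tagln, Cnn1, Myl9 and Tpm1 kept their sign throughout. Signs turned for Actg2 (−0.1045 without wild-type replicate 3, −0.117 when knockout replicate 2 was omitted, with a highest value of 0.148), for Smtn and Cald1 (0.028 and 0.029 with library totals, 0.019 and 0.108 without wild-type replicate 1, 0.023 and 0.036 when knockout replicate 1 was omitted, with lowest values of −0.037 and −0.084 with 1 library left out) and for Tpm2 (−0.324 without wild-type replicate 3 to 0.0024 without wild-type replicate 1). Among other genes, Myocd was at 0.024 with library totals, 0.0091 in limma voom, 0.0078 with the replicate block, and from −0.191 to 0.204 with each library left out (0.050 and 0.046 when knockout replicate 1 or 3 was omitted). Myh10 was at 0.0090 with library totals and ran from −0.193 to 0.099 with each library left out (0.013 and 0.085 when wild-type replicate 3 or knockout replicate 2 was omitted). Myh9 ran from −0.264 to 0.038 (without wild-type replicate 1), Mkl2 from −0.116 to 0.016 (without knockout replicate 1), and Ndufa9 was at 0.019 with the length trend removed. With each library left out the log2 ratio ran from −0.072 to 0.167 for Tpm2 to Tpm1, from −0.024 to 0.546 for Myh11 to Myh9 and from −0.136 to 0.285 for Cnn1 to Cnn3. The cause of these turns was not tested.

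Same-numbered libraries did not deviate together (correlations across genes of −0.270, −0.177 and −0.0835), so the numbers were not taken as pairs. With the replicate block edgeR called 0 genes, with 572 at an unadjusted p under 0.05 against 955 (0 of the 10 contractile genes against 1), and the median of the 10 genes was −0.130. With 3 libraries a genotype the intervals of the 10 genes allow changes of up to 0.63 on the log2 scale.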
